A study of Mus musculus with 14 samples.

Results

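Cells sorted from the mammary glands of virgin mice as subpopulation P4 were compared with cells sorted from such glands as subpopulation P5. The comparison rests on 4 of the 14 arrays of the study, chosen by their labels, with 2 arrays of P4 and 2 of P5. All 4 came from wild-type FVB/N-J mice that had not been pregnant, and the age of the mice was not given in the sources used here. The labels describe P4 as enriched for mammary stem cells (MaSC) and P5 as enriched for luminal progenitors. They give the same surface phenotype, CD24+CD29hi, for both populations. Further arrays used here for comparison held subpopulation P6 of virgin mice (2 arrays, labelled CD24lo and differentiated), P4 and P5 of pregnant wild-type mice (2 arrays each), and the lineage-negative GFPhi and GFPlo cells of virgin L2G85 mice (1 array each), a luciferase transgenic line on the FVB/N background.

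The mammary duct is built of an outer basal layer and an inner luminal layer. Basal, or myoepithelial, cells rest on the basement membrane, carry smooth muscle proteins and contract in response to oxytocin to eject milk; cells that can regenerate a gland on transplantation are found in the basal fraction of the mouse gland. Luminal cells line the lumen and divide into hormone-sensing cells, which carry the estrogen and progesterone receptors and signal to their neighbours, and progenitors that give rise to milk-secreting alveolar cells.

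Each array carried RNA of the sorted cells in Cy5 and a common reference RNA, pooled from 11 cell lines of mouse origin, in Cy3. Values are log2(Cy5/Cy3) after background correction and loess normalization, and levels of different genes are not compared. A value of 1 is a normalized signal 2 times that of the reference. The correction added 50 to both channels, which draws the ratios of dim probes toward 0. Folds given here are folds of these values and not of RNA levels. Replicate 1 of P4 and of P5 lay on one slide and replicate 2 of both on another, and P4 minus P5 was therefore fitted in limma with the replicate as a block. Calls were made at a p under 0.05 after Benjamini-Hochberg adjustment over all genes tested. Whether the replicates came from separate animals was not stated, so the p-values measure only how far the arrays spread, possibly for technical reasons. That spread was pooled over the 12 wild-type arrays, those of P6 and of pregnant mice included, after the replicate shift was removed. It is not the spread of the 4 P4 and P5 arrays alone. The median Cy5 intensity was 107 and 137 on the P4 arrays and 118 and 150 on the P5 arrays, over local backgrounds of 33 to 33.5, and the number of arrays limits the precision. Over all genes, the replicates of P4 correlated at 0.948 and those of P5 at 0.930, whereas P4 and P5 correlated at 0.715 on the first slide and 0.672 on the second.

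The 2 populations separated along the basal and luminal axis, with smooth muscle and basal keratin genes higher in P4 and luminal keratin and hormone receptor genes lower. In P4, 3025 genes were called higher and 2722 lower than in P5, together 24.3% of the 23645 genes tested (12.8% higher and 11.5% lower). Of these, 1576 were higher and 991 lower by at least 2-fold, and 208 were higher and 62 lower by at least 8-fold. Without the replicate block 2690 genes were called (11.4%, with 1552 or 6.56% higher and 1138 or 4.81% lower), all of them among the 5747. Leaving out one array gave 3520 calls without P4 replicate 1, 3635 without P4 replicate 2, 2909 without P5 replicate 1 and 2673 without P5 replicate 2. With local backgrounds kept as the scanner gave them, 3873 genes were called (2021 higher and 1852 lower). The median difference over all genes was 0.03. The split into higher and lower calls depended on the normalization, since median centring in place of loess gave 1498 higher and 3036 lower.

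**Figure D1:**
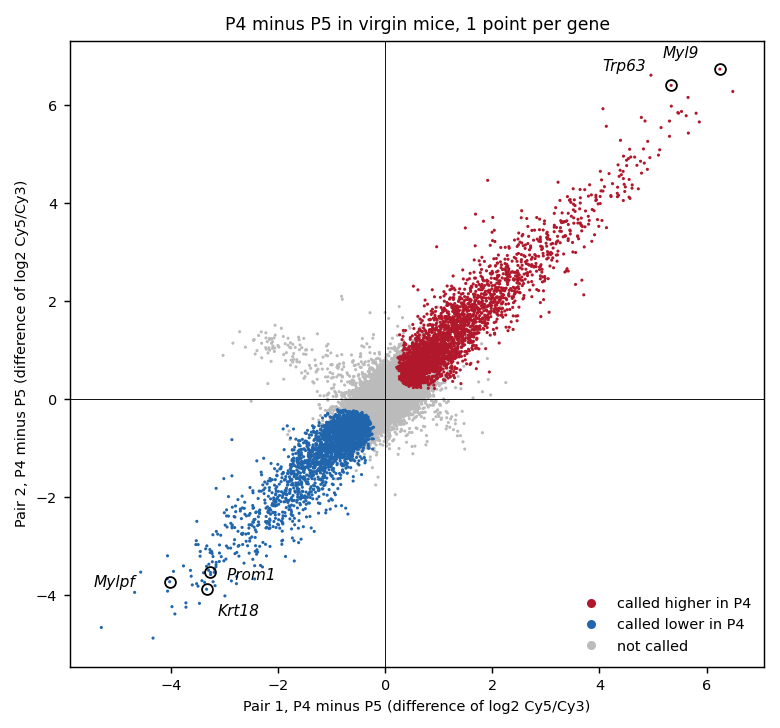
Difference of log2(Cy5/Cy3) between P4 and P5 in virgin mice on the first slide (x axis, pair 1) against the second slide (y axis, pair 2), with 1 point per gene; genes called higher in P4 are red, those called lower blue and the rest grey. Myl9 and Trp63 lie at the upper right and Krt18, Prom1 and Mylpf at the lower left. Of the called genes 99.9% have the same sign in both pairs, against 73.9% of all genes tested. The calls were made from these same pairs, so their agreement is no independent check.

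The 4 marker genes differed between the populations. Trp63 encodes p63, the transcription factor that defines the basal lineage, and its log2 ratio was 6.31 and 6.82 on the P4 arrays, against 0.97 and 0.41 on the P5 arrays. The difference was 5.87 (SE 0.38, limma adjusted p = 6.2e-05), or 58.6-fold. The other 2 probes of Trp63 differed by 0.73 and -0.03, so the size rests on the brightest probe. Myl9, the regulatory light chain of smooth muscle myosin, gave 4.79 and 4.46 in P4, against -1.46 and -2.27 in P5. Its difference of 6.49 (SE 0.72, limma adjusted p = 0.00064), or 90.1-fold, was the largest among the genes named here.

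Krt18, a keratin of simple epithelia that marks luminal cells, gave 1.18 and 0.04 in P4, against 4.52 and 3.92 in P5 (difference -3.61, SE 0.15, limma adjusted p = 3e-05). Prom1, the membrane protein prominin-1 found on luminal cells that respond to estrogen, gave 1.32 and 1.28 in P4, against 4.59 and 4.81 in P5 (difference -3.40, SE 0.14, limma adjusted p = 1.1e-05). A second probe of Prom1 differed by -2.66. For all 4 markers the 2 P4 arrays did not overlap the 2 P5 arrays, but neither did they in 55.1% of all genes with a value on the 4 arrays (30.7% with P4 above and 24.4% with P4 below), so a lack of overlap here or below sets no gene apart by itself.

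The probes of 1 luminal, 1 hormone-sensing and 1 muscle gene are shown as the array files give them, since the values reported for these genes are those of these probes. Positions are on mouse build mm7, as in the files. Krt18 was read at chr15:102018067-102018126, Pgr at chr9:8987004-8987063 and Mylpf at chr7:123309793-123310029, a span longer than the probe. Each probe has 60 bases, given 5′ to 3′, and its gene lies on the plus strand in the RefSeq table (GRCm38.p6).
Krt18: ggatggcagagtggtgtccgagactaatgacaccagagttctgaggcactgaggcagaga
Pgr: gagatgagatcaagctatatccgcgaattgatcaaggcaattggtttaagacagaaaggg
Mylpf: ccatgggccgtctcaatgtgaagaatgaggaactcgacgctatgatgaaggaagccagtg

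The contractile programme of smooth muscle was higher in P4. Of 23 contractile genes, 21 were called higher in P4 (12.8% of all genes were), and the list median was 2.99. Tagln, which encodes the actin-binding protein transgelin, gave 5.32 and 5.27 in P4, against -1.17 and -1.01 in P5 (difference 6.39, SE 0.58, limma adjusted p = 0.00025). Cnn1, or calponin, which inhibits the myosin ATPase, gave 7.47 and 6.93 in P4, against 1.81 and 0.77 in P5 (difference 5.91, SE 0.84, limma adjusted p = 0.0021). Neither gene overlapped between the populations.

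Tpm2, a tropomyosin, differed by 5.82, Acta2, the alpha actin of smooth muscle, by 5.76, and Mylk, the kinase that phosphorylates the regulatory light chain, by 5.70. Myh11, the heavy chain of smooth muscle myosin, was at 6.40 and 6.02 in P4, against 1.51 and 1.32 in P5. Cald1 (caldesmon), Synm (synemin) and Flna (filamin A) were higher by 4.70, 4.74 and 4.34. The other probes of Flna differed by 3.97, 0.60 and 0.14. Actc1, an actin of cardiac muscle outside the list, was higher by 5.49 and Palld, a scaffold protein of actin bundles, by 5.55. Oxtr, the receptor through which oxytocin triggers milk ejection, gave 3.08 and 3.69 in P4, against 1.01 and 1.45 in P5 (difference 2.16), but its call was lost with the scanner's own log ratios. Srf, the transcription factor that binds promoters of smooth muscle genes, was higher by 1.63 (SE 0.12, limma adjusted p = 0.00011).

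The 2 members that did not pass were Des (desmin; difference -0.23) and Myocd (myocardin, a coactivator of Srf; difference -0.05). Kcnmb1 and Myl6 passed at 0.50 and 1.86. Both lost their calls without the replicate block and without any one of the 4 arrays, where the limma adjusted p ran from 0.069 to 0.3 for Kcnmb1 and from 0.12 to 0.21 for Myl6. For Pgm5, a phosphoglucomutase relative at cell adhesions, the brightest probe differed by 1.78 but its other probes by -0.03 and 0.21. The brightest probe of Tpm1, a tropomyosin called higher, differed by 2.52, and its other probes by -2.46 and 1.77. Since these are bulk RNA samples, fewer cells of a type and less RNA per cell cannot be told apart here or in any list below.

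Srf acts through a short DNA element, the CArG box, and the promoters of the contractile genes were searched for it on both strands. Only the exact form CCWWWWWWGG was counted, with W for A or T, so windows without it may hold variant boxes. RefSeq promoter windows (GRCm38.p6, from 250 bases before to 50 after the gene start) were held for 19 of the 23 genes, in 21 windows. Tagln, Myh11, Actg2 and Myocd had no window. A CArG box lay in 4 of the 21 windows (19.0%), those of Myl9, Myl6, Vcl and Srf, against 1.63% of 32851 windows of all genes. The box was also in 2 of 17 windows of the fast skeletal muscle list (11.8%), whose genes were mostly lower in P4, and in 1 of 19 windows of the hormone-sensing list (5.26%). It was in 0 of 14 windows of the basal identity list, which was higher in P4, and in 0 of 15 windows of the luminal list. The element in the Myl9 promoter began 161 bases before the gene start. It is shown in capitals within the 250 bases upstream of Myl9, plus strand, at chr2:156775214-156775463.
Myl9: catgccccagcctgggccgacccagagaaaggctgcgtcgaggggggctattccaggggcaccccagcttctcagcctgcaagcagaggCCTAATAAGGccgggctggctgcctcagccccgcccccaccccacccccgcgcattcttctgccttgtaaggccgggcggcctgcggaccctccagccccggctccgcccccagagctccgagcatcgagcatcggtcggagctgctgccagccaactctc

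**Figure D2:**
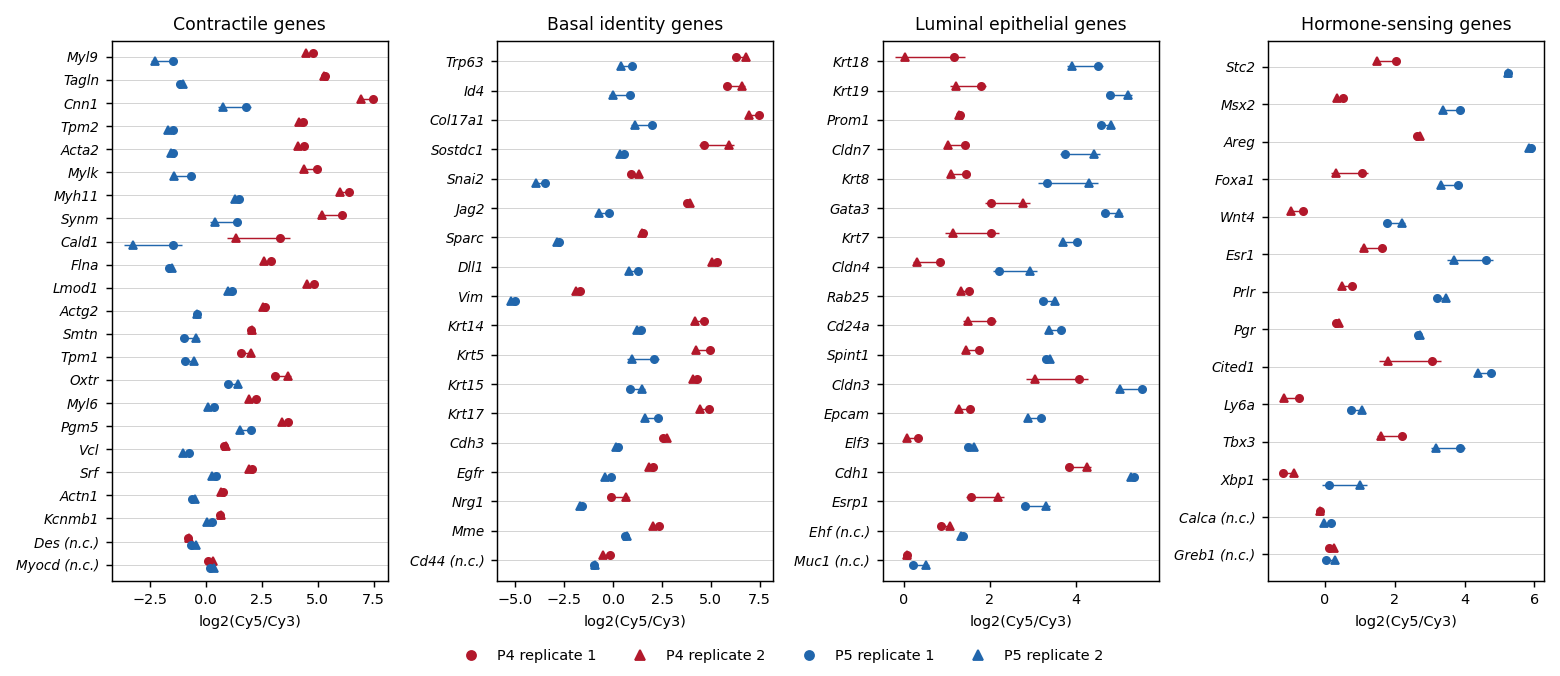
log2(Cy5/Cy3) of each virgin array (x axis) for the members of 4 gene lists (down the page), with P4 in red above P5 in blue, replicate 1 as circles and replicate 2 as triangles; lines span the mean ± SD of the 2 arrays and n.c. marks genes not called, and 1 hormone-sensing gene is not drawn. Contractile and basal genes lie to the right in P4, and luminal and hormone-sensing genes lie to the right in P5.

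Genes of basal identity were called higher in P4 for 17 of 18 members, with a median difference of 3.22. After Trp63, the differences were led by Id4, an inhibitor of helix-loop-helix factors, at 5.79, and Col17a1, the transmembrane collagen of hemidesmosomes, at 5.66. Col17a1 gave 7.45 and 6.95 in P4, against 1.98 and 1.11 in P5. Sostdc1, a secreted antagonist of BMP and Wnt signals, differed by 4.85, and Snai2, the zinc finger repressor Slug, by 4.84.

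The basal keratins Krt5, Krt14, Krt15 and Krt17, which form the intermediate filaments of this layer, were higher by 3.05, 3.08, 3.02 and 2.74. Krt14 gave 4.66 and 4.17 in P4, against 1.44 and 1.22 in P5, so that both populations lay above the reference and did not overlap. The call of Krt15 was lost without P4 replicate 1, P5 replicate 1 or P5 replicate 2 (limma adjusted p = 0.069, 0.077 and 0.053). Vim (vimentin) gave -1.69 and -1.91 in P4, against -5.05 and -5.25 in P5, with both below the reference. Cd44, a receptor for hyaluronan, was the member that did not pass (difference 0.62, limma adjusted p = 0.068). Other genes with some of the largest differences were Igfbp2, which binds insulin-like growth factors (5.66), Spon2, a secreted matrix protein (5.66), Col7a1, the collagen of anchoring fibrils (5.70), and Sobp (5.35).

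The basement membrane and its receptors were higher in P4 as a group, with 20 of 23 members called and a median of 1.56. Without the replicate block 13 were called. Collagen IV, the network-forming collagen, was led by Col4a1, at 2.56 and 3.19 in P4, against -1.95 and -1.59 in P5 (difference 4.64, SE 0.29, limma adjusted p = 5.3e-05). Col4a2 differed by 4.01. Among the laminin chains Lama1 differed by 3.60, Lamb1 by 3.48, and Lamb3 and Lama3, chains of laminin-332, by 2.98 and 2.74. The call of Lama1 was lost with the scanner's own log ratios.

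The integrins that bind laminin, Itga6, Itga3, Itgb1 and Itgb4, were higher by 2.53, 1.25, 1.19 and 0.78. The call of Itgb4 was lost without any one of the 4 arrays (limma adjusted p from 0.058 to 0.17), and that of Itgb1 without P5 replicate 2 (limma adjusted p = 0.058). Lama5, Lama2 and Nid2 did not pass, with differences of -0.74, 0.37 and 1.55. Nid1 (nidogen) gave -0.02 and -0.25 in P4, against -1.81 and -2.90 in P5, and averaged 5.12 in P6.

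Luminal epithelial genes ran the other way, with 16 of 18 members called lower in P4, where 11.5% of all genes were, and a median of -1.85. Without the replicate block 12 were called. The luminal keratins Krt19, Krt8 and Krt7, partners or relatives of Krt18, were lower by 3.50, 2.53 and 2.28 on the log2 scale. Krt19 gave 1.79 and 1.21 in P4, against 4.79 and 5.22 in P5. Gata3, the transcription factor required for luminal differentiation, averaged 2.41 ± 0.52 in P4 and 4.84 ± 0.23 in P5 (SD, n = 2 each, difference -2.43, SE 0.31, limma adjusted p = 0.0012). Neither gene overlapped between the populations.

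The tight junction claudins Cldn7, Cldn4 and Cldn3 were lower by 2.86, 2.00 and 1.73 on the log2 scale, and Cldn8, outside the list, by 3.99. The epithelial cadherin Cdh1 and the splicing factor Esrp1 were lower by 1.26 and 1.18 and lost their calls without the block and without P4 replicate 1, P5 replicate 1 or P5 replicate 2 (limma adjusted p from 0.082 to 0.1 for Cdh1 and from 0.059 to 0.089 for Esrp1). The epithelial factor Ehf (-0.37) and the mucin Muc1 (-0.30) did not pass on their brightest probes. The other 2 probes of Ehf differed by -2.05 and -1.93 and the other probe of Muc1 by -0.92, and 17 of the 18 genes were called lower with the median of a gene's probes.

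The hormone-sensing programme was lower in P4 in 12 of the 15 members tested, with a median of -2.33; Tnfsf11 was not tested, as no probe of it passed the brightness filter. Among the receptors, Esr1 (estrogen receptor alpha) gave 1.64 and 1.13 in P4, against 4.63 and 3.69 in P5 (difference -2.78, SE 0.33, limma adjusted p = 0.0009). Pgr (the progesterone receptor, probe shown above) gave 0.33 and 0.40 in P4, against 2.68 and 2.73 in P5 (difference -2.33, SE 0.12, limma adjusted p = 2.8e-05). Prlr (the prolactin receptor) gave 0.80 and 0.49 in P4, against 3.22 and 3.47 in P5 (difference -2.70, SE 0.16, limma adjusted p = 4.1e-05). All 3 receptors were lower on both P4 arrays than on either P5 array, as were 24.4% of all genes. The second probe of Esr1 differed by -0.34 and that of Pgr by -0.86.

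Of the ligands in the list, Areg and Wnt4 were called lower. Areg, the EGF family ligand induced by estrogen, gave 2.64 and 2.72 in P4, against 5.91 and 5.85 in P5 (difference -3.20, SE 0.25, limma adjusted p = 0.00013). Wnt4, the ligand induced by progesterone, gave -0.63 and -0.96 in P4, against 1.77 and 2.20 in P5 (difference -2.78, SE 0.23, limma adjusted p = 0.00016). Neither ligand overlapped between the populations.

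Of the transcription factors, Foxa1, which opens chromatin for the estrogen receptor, differed by -2.87, Msx2 by -3.20, Tbx3 by -1.61 and Cited1 by -2.13. Stc2, the secreted glycoprotein stanniocalcin 2, had the largest difference of the list, at -3.47 (SE 0.16, limma adjusted p = 1.9e-05). Ly6a, the gene of Sca-1, differed by -1.86 and Xbp1, a factor of the secretory apparatus, by -1.60. The call of Ly6a was lost without P4 replicate 2 or P5 replicate 2 (limma adjusted p = 0.052 and 0.067), and that of Xbp1 without P4 replicate 2, P5 replicate 1 or P5 replicate 2 (limma adjusted p = 0.12, 0.069 and 0.14). Greb1 and Calca did not pass, and Greb1 was well above background on 1 of the 2 P5 arrays.

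Genes of luminal progenitors and milk synthesis were lower in P4 for 12 of 20 members, with a median of -1.66, and for 4 without the replicate block. The receptor kinase Kit, a marker of luminal progenitors, gave 1.64 and 1.80 in P4, against 4.01 and 4.30 in P5 (difference -2.43, SE 0.23, limma adjusted p = 0.0003). Elf5, the transcription factor of the alveolar lineage, gave 4.59 and 4.06 in P4, against 6.69 and 6.37 in P5. Both lay apart between the populations, and Elf5 lost its call with the scanner's own log ratios and with local backgrounds as the scanner gave them. The milk protein genes Csn2 and Csn3 differed by -2.29 and -2.28. The call of Csn2 was lost without any one of the 4 arrays (limma adjusted p from 0.054 to 0.2). Wap, Lcn2 and Sox10 did not pass (-0.09, 0.25 and 0.43).

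The sorting genes were compared with the gate that the labels give. Cd24a, which encodes CD24, gave 2.03 and 1.49 in P4, against 3.67 and 3.38 in P5 (difference -1.76, SE 0.26, limma adjusted p = 0.0024). Itgb1, which encodes CD29, gave -0.35 and -0.14 in P4, against -1.53 and -1.34 in P5 (difference 1.19, SE 0.19, limma adjusted p = 0.0038), and its call was lost with median centring, without the block (limma adjusted p = 0.19) and without P5 replicate 2 (limma adjusted p = 0.058). The groups did not overlap for either gene although the labels name 1 phenotype for both. Itga6 (CD49f) was higher by 2.53, and Epcam and Ly6a were lower by 1.63 and 1.86. The lineage genes Pecam1 and Thy1 were higher by 1.14 and 1.01. Pecam1 lost its call without any one of the 4 arrays, Thy1 without the block and with median centring, and Ptprc (CD45) did not pass (0.71).

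Genes of 3 signalling pathways were compared by role. Counts here and in the lists below stand beside 12.8% of all genes called higher and 11.5% called lower. Of 32 Wnt and R-spondin genes tested, 17 were called higher in P4 and 2 lower, with a median of 1.16. The 17 include Tcf4 (1.48), which encodes a helix-loop-helix factor and not a Wnt effector. The higher ligands were Wnt10a, Wnt6 and Wnt11, and the lower ones Wnt4 and Wnt5a. Wnt10a differed by 4.46 (SE 0.21, limma adjusted p = 1.9e-05), with both P4 arrays above the reference and both P5 arrays below it. Among receptors Lgr5, which binds R-spondins, gave 4.45 and 4.33 in P4, against 0.41 and 0.68 in P5 (difference 3.85, SE 0.16, limma adjusted p = 1.3e-05). The Frizzled receptors Fzd7, Fzd1 and Fzd2 differed by 2.37, 2.18 and 1.11.

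Wif1, Dkk3 and Sfrp1, secreted inhibitors of the Wnt pathway, were higher in P4 as well, while Dkk1 and Sfrp2 did not pass (0.02 and -0.59). The Wnt-binding inhibitor Wif1 gave 5.80 and 6.09 in P4, against 1.02 and 0.33 in P5 (difference 5.27, SE 0.24, limma adjusted p = 1.9e-05). Dkk3 and Sfrp1 differed by 4.36 and 2.15. The target gene Axin2 differed by 1.72 and Procr, a surface receptor of a basal stem cell subset, by 2.48. The call of Axin2 was lost without P4 replicate 2, P5 replicate 1 or P5 replicate 2 (limma adjusted p = 0.14, 0.13 and 0.093).

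In the Notch pathway, which signals between touching cells, 6 of 18 genes were called higher in P4 and 4 lower (2 and 3 without the block). The ligands Jag2 and Dll1 had the largest differences, 4.33 and 4.14, while the target gene Hey1 and the receptor Notch1 differed by -1.94 and -1.28. The call of Hey1 was lost without P4 replicate 1 or P5 replicate 2 (limma adjusted p = 0.055 and 0.076), and that of Notch1 without P4 replicate 1, P4 replicate 2 or P5 replicate 2 (limma adjusted p = 0.059, 0.064 and 0.11). Jag2 gave 3.78 and 3.91 in P4, against -0.23 and -0.74 in P5. Hey2, another target gene, was not well above background on either P4 array and was at least 1.73-fold lower in P4 (limma adjusted p = 0.0083). That call was lost without P4 replicate 2 or P5 replicate 2 (limma adjusted p = 0.069 and 0.11).

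The EGF family split evenly, with 4 of 14 genes called higher and 4 lower. The receptor Egfr, the ligand Nrg1 and the feedback inhibitors Errfi1 and Lrig1 were higher, at 2.17, 1.93, 2.16 and 1.21. The ligands Areg and Btc and the receptors Erbb3 and Erbb2 were lower, at -3.20, -2.13, -2.96 and -1.70. Btc was well above background on 1 of the 2 P4 arrays. The call of Nrg1 was lost without P5 replicate 2 (limma adjusted p = 0.064). Egfr gave 2.01 and 1.84 in P4, against -0.09 and -0.40 in P5, whereas Erbb3 gave 1.59 and 0.85 in P4, against 4.48 and 3.89 in P5. The other probes of Erbb3 pointed the same way with smaller differences, from -0.16 to -0.72.

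Of 13 factors linked to epithelial-mesenchymal transition, 9 were called higher and Sox9 lower (4 and 1 without the block). Snai2 led with 4.84, followed by the cadherin Cdh2 at 1.99. Zeb1, a repressor of epithelial genes, gave -1.59 and -1.63 in P4, against -2.52 and -2.61 in P5, all below the reference. Sox9 differed by -1.34. Cdh2 and Sox9 lost their calls without P5 replicate 1 (limma adjusted p = 0.12 and 0.052) or P5 replicate 2 (limma adjusted p = 0.11 and 0.14), as did Cdh2 without P4 replicate 2 (limma adjusted p = 0.13) and Sox9 without P4 replicate 1 (limma adjusted p = 0.11). Zeb1 lost its call without any one of the 4 arrays (limma adjusted p from 0.065 to 0.12).

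Of 19 cell cycle genes, Pcna alone was called (0.65), and the list median was -0.17. Its call was lost without the block, without P4 replicate 1 (limma adjusted p = 0.12) and without P5 replicate 1 (limma adjusted p = 0.14). Mki67, the proliferation antigen Ki-67, gave -3.65 and -2.43 in P4, against -3.77 and -1.98 in P5, and the groups overlapped. Among 14 immediate early and stress genes 4 were called higher, led by Egr3 at 4.10 and Egr2 at 3.75, and 3 lower, led by Nupr1 at -2.46 (2 and 1 without the block). The other probe of Egr3 differed by 0.26.

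**Figure D3:**
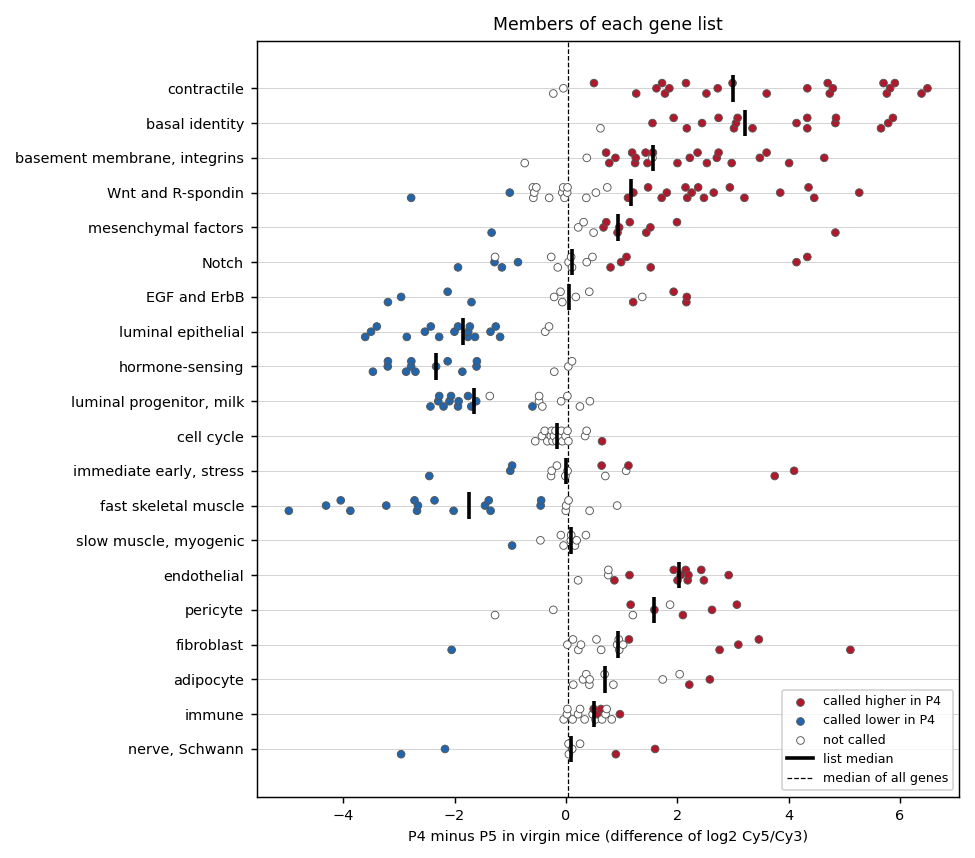
P4 minus P5 in virgin mice (x axis, difference of log2 Cy5/Cy3) for each tested member of 20 gene lists, 1 list per line; red points were called higher in P4, blue points lower and open points not called, bars mark the list median and the dashed line the median of all genes, 0.03. The contractile and basal lists reach past 5 and the fast skeletal muscle list reaches -4.98.

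Besides the epithelial programmes, genes of fast skeletal muscle set the populations apart. Of 20 such genes, 15 were called lower in P4 (12 without the block), with a median of -1.74. Myl1, the alkali light chain of fast myosin, gave -1.66 and -1.50 in P4, against 3.64 and 3.15 in P5 (difference -4.98, SE 0.66, limma adjusted p = 0.0015), the most negative among the genes named here. Mylpf (the fast regulatory light chain, probe shown above) gave -1.51 and -1.42 in P4, against 2.52 and 2.30 in P5 (difference -3.87, SE 0.27, limma adjusted p = 8.4e-05). Tnnc2 (fast troponin C) gave -0.27 and -0.10 in P4, against 4.41 and 3.84 in P5. None of the 3 overlapped, with P4 below as in 24.4% of all genes.

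Myh4, a fast myosin heavy chain, differed by -4.05, and Myh8, the perinatal heavy chain, by -3.73. The call of Myh8 was lost without P4 replicate 2 or P5 replicate 1 (limma adjusted p = 0.051 and 0.077). On the P6 arrays Myh4 averaged 4.65 and Myh8 3.90. Pvalb, the calcium buffer parvalbumin, averaged 0.03 in P4, where it was not well above background on either array, and 2.69 in P5, and was at least 6.32-fold lower in P4 (limma adjusted p = 6.8e-05). Acta1, Ryr1, Myh2, Atp2a1 and Ttn did not pass on their brightest probes, where the largest of their differences was 0.92, in Acta1. Other probes of Atp2a1 and Ryr1 differed by as much as -1.45 and -0.72. Of 9 slow muscle and myogenic genes, Myh7 was called lower (-0.97), a call lost without P4 replicate 1 or P5 replicate 1 (limma adjusted p = 0.064 and 0.083). Myl3, of the same list, did not pass on its brightest probe (0.19), while its other probe differed by -3.91. The myogenic factors Myod1 and Myog differed by 0.36 and 0.16 and did not pass. The median ratio of the fast muscle list was -0.04 and -0.03 on the P4 arrays, 2.27 and 2.24 on the P5 arrays, and -0.12 and 0.00 on the P6 arrays. The luminal and hormone-sensing lists were lower in P4 with the same sign as this list, and the part of muscle RNA in any of these results was not tested.

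Marker lists of cells outside the epithelium were compared in the same way. Of 14 endothelial genes, 11 were called higher in P4, but 4 without the block, and the list median per array was 3.26 and 2.97 in P4, against 1.24 and 1.05 in P5. Kdr, the receptor for vascular endothelial growth factor, gave 4.42 and 4.66 in P4, against 1.71 and 1.53 in P5 (difference 2.92, SE 0.45, limma adjusted p = 0.003). The defining markers Cdh5 and Pecam1 were higher by 2.43 and 1.14, while Vwf, Tie1 and Tek did not pass (0.76, 0.76 and 0.22). The calls of Cdh5 and Pecam1 were lost without any one of the 4 arrays (limma adjusted p from 0.091 to 0.22 and from 0.064 to 0.11). All 14 were well above background on all 4 arrays.

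Of 9 pericyte genes, 5 were called higher, led by Mcam at 3.07 and Pdgfrb at 2.62. Their median per array was 1.67 and 1.57 in P4, against 0.50 and 0.49 in P5. Pericytes and vascular smooth muscle share contractile genes with myoepithelial cells, and both lists moved with the contractile list; their part in the contractile result was not tested.

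Of 16 fibroblast genes 5 were called higher and 1 lower: Postn (periostin) led with 5.11, and Col6a3 was at -2.05. The other probe of Postn differed by 0.34 and that of Col6a3 by -0.17. The abundant fibroblast genes Col1a1, Col3a1, Dcn and Pdgfra did not pass, with differences of 1.03, 0.95, 0.27 and 0.13. Of 17 immune genes 4 were called higher, each by less than 1, and all 4 calls were lost without the block. Of 11 adipocyte genes 2 were called higher, Plin4 at 2.58 and Cd36 at 2.22, and of 8 nerve genes 2 were higher and 2 lower. Of all genes 12.8% were called higher and 11.5% lower, and whether these lists exceed those shares was not tested. Mbp, among the lower nerve genes, differed by -2.17 and its other probes by 1.59 and -0.06. The call of Plin4 was lost without P4 replicate 1 or P5 replicate 1 (limma adjusted p = 0.051 and 0.054).

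**Figure D4:**
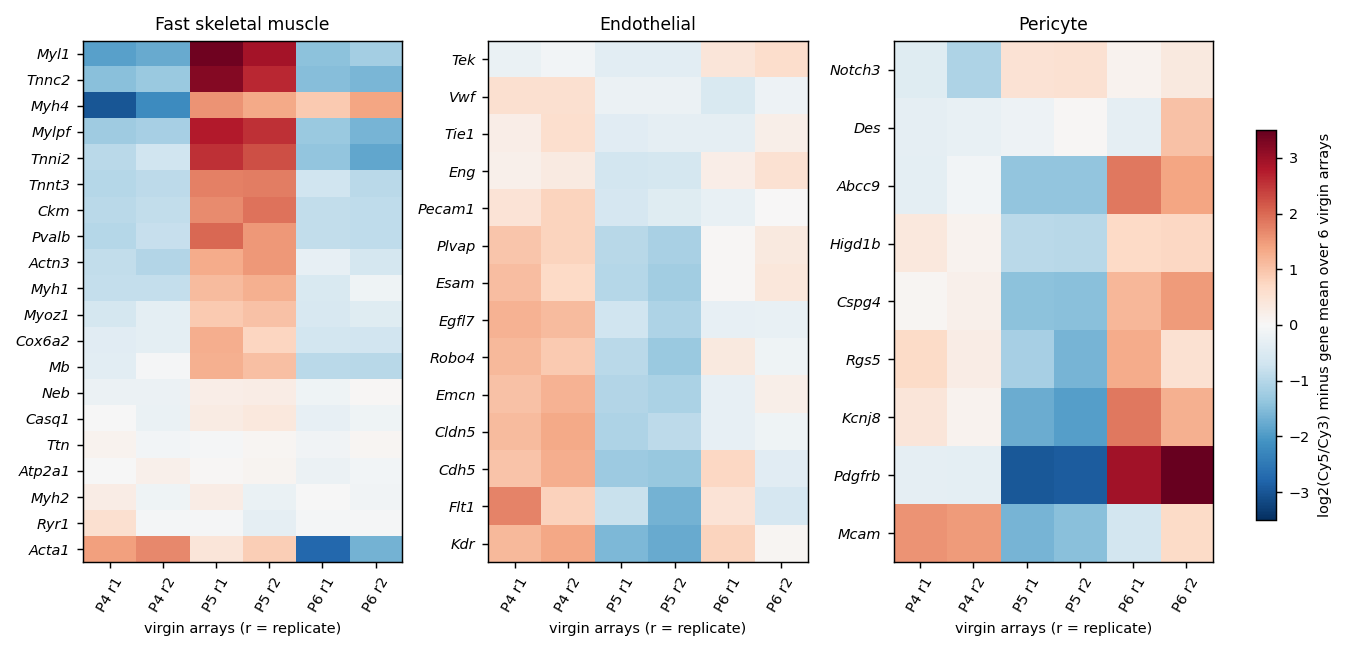
Colour shows log2(Cy5/Cy3) of fast skeletal muscle, endothelial and pericyte genes (down the page) on the 6 virgin arrays (across, P4, then P5, then P6, r for replicate), each gene centred on its mean over those arrays; red is above and blue below that mean. Many of the muscle genes from Myl1 to Mb stand out on both P5 arrays, while Myh4 is also high on both P6 arrays. The endothelial genes from Plvap to Kdr are lowest on the P5 arrays.

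The genes with the most negative differences outside these lists are named by rank among genes with a reference symbol. Ido1, the enzyme that breaks down tryptophan, gave 2.22 and 2.21 in P4, against 6.21 and 6.44 in P5 (difference -4.11, SE 0.13, limma adjusted p = 7.9e-06). Tlcd4 gave 2.47 and 1.89 in P4, against 6.81 and 6.77 in P5 (difference -4.60). Neither overlapped. Clca1, Tspan1, Aoc1 (diamine oxidase), Mboat1, Gipc2, Myb (a transcription factor of progenitor cells) and Sftpd (surfactant protein D) differed by -3.98, -3.94, -3.87, -3.82, -3.65, -3.64 and -3.63.

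The difference between P4 and P5 was also measured in pregnant mice. Replicate 1 of both populations lay on one slide there, but replicate 2 of P4 and replicate 2 of P5 lay on different slides. In pregnant mice 9757 genes were called between P4 and P5 (41.3%), and P4 minus P5 differed between virgin and pregnant mice, as tested by the interaction, in 6245 genes (26.4% of genes, with 12.4% more negative in virgin mice). Without the replicate block these counts were 5348 and 1903, the second being 8.05% of genes, with 3.90% larger and 4.14% smaller in virgin mice. With the slide as the block they were 6864 and 4336. Of the genes called higher in virgin P4, 64.3% were also called higher in pregnant P4, whereas of those called lower in virgin P4, 42.7% were also called lower in pregnant P4 and 15.1% were called higher. The higher and lower overlaps are 42.6% and 22.4% of the pregnant lists. Of all genes, 19.3% were called higher and 22.0% lower in pregnant P4. With median centring 81.1% of the genes called higher in virgin P4 were also called higher in pregnant P4, and of those called lower 16.8% were also called lower and 25.5% were called higher, where 25.5% and 8.18% of all genes were called higher and lower in pregnant P4. The split of interaction calls changed from 3324 larger and 2921 smaller in virgin mice with loess to 793 larger and 5762 smaller with median centring. Median centring also moved the median interaction of all genes from 0.09 to -0.22.

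The contractile list had a median P4 minus P5 of 2.99 in virgin and 3.65 in pregnant mice, and the basal list 3.22 in virgin and 3.97 in pregnant mice. The difference was larger in virgin mice in 1 contractile gene and 3 basal genes and smaller in 5 and 1, as called by the interaction. With median centring 7 contractile and 6 basal genes were called, all smaller in virgin mice. With the slide as a block 7 contractile and 5 basal genes were called larger and 4 and 3 smaller, so that the direction for these lists changed with the setting. Without the replicate block limma called 2 contractile genes, both smaller, and 0 basal genes, while 8 basal genes had an unadjusted p under 0.05. Replicate 1 of the pregnant groups was scanned without the extended dynamic range. With it left out, the pregnant median was 4.46 for the contractile and 4.01 for the basal list. The 2 pregnant P4 arrays lay far apart in Acta2 (1.90 and 5.98) and Cnn1 (4.12 and 8.13), and closer in Smtn (2.16 and 2.68). The hormone-sensing list had a median of -2.33 in virgin against -0.29 in pregnant mice, and the interaction was called more negative in virgin mice in 10 of its 15 genes. The count was 6 without the block and ran from 7 to 11 under the other settings of normalization, background, filter, probe choice, slide and scan. Pgr gave 0.54 and 0.44 in pregnant P4, against -0.07 and -0.13 in pregnant P5, so that its P4 minus P5 was -2.33 in virgin and 0.59 in pregnant mice (interaction -2.92, SE 0.17, limma adjusted p = 0.00018). Wnt4 differed by -2.78 in virgin and 2.41 in pregnant mice (interaction -5.19, SE 0.32, limma adjusted p = 0.00022). Stc2 was lower in P4 in both states, at -3.47 in virgin and -2.95 in pregnant mice.

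Of the luminal list, 8 of 18 genes had a more negative difference in virgin mice by the interaction (7 without the block). Krt18 gave -0.61 and -0.16 in pregnant P4, against 0.35 on the one pregnant P5 array with a value, since the spot was marked as an outlier on the other. Krt8 differed by -2.53 in virgin and 1.39 in pregnant mice, and Krt7 by -2.28 in virgin and 2.14 in pregnant mice. Cldn7, Rab25, Spint1 and Epcam were called lower in P4 in both states. Of the fast muscle list, 15 of 20 genes had a more negative difference in virgin mice (10 without the block), and Tnni2 (fast troponin I) differed by -3.23 in virgin and 3.41 in pregnant mice. The arrays of replicate 1 of the pregnant groups were scanned without the extended dynamic range, and these 3 counts were recomputed without them, with 1 pregnant array left per population. Then 9 hormone-sensing, 6 luminal and 14 muscle genes had a more negative difference in virgin mice.

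**Figure D5:**
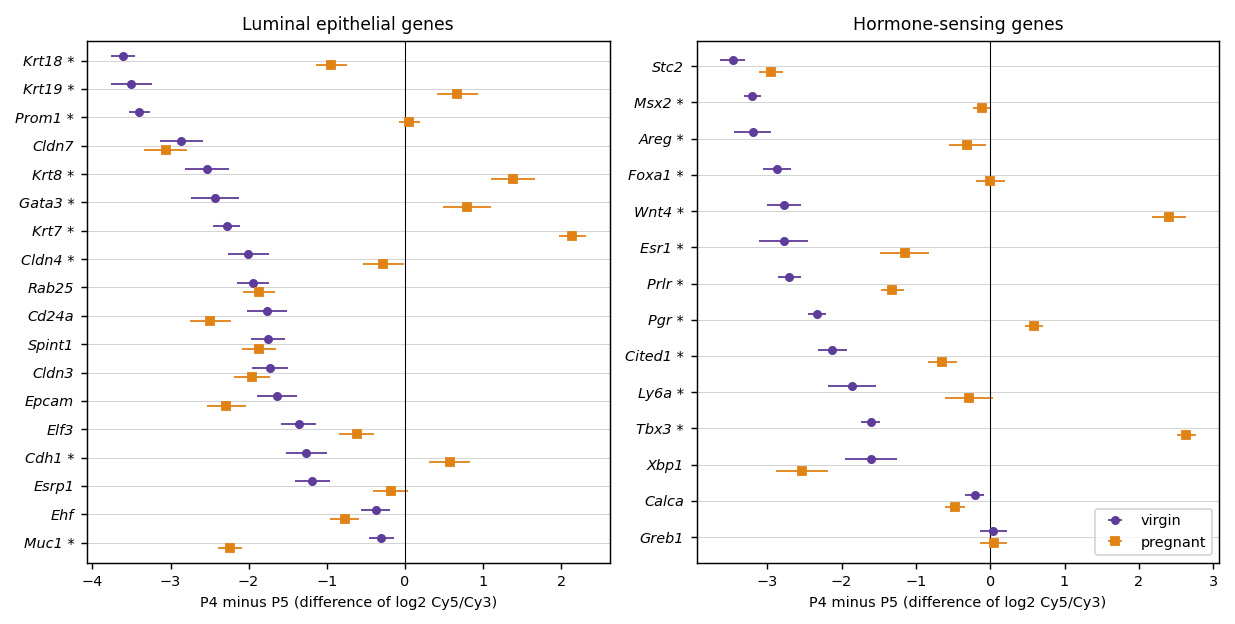
P4 minus P5 (x axis, difference of log2 Cy5/Cy3 with its SE) in virgin mice (purple circles) and pregnant mice (orange squares) for luminal epithelial and hormone-sensing genes (down the page); an asterisk marks an interaction called at an adjusted p under 0.05, and 1 hormone-sensing gene is not drawn. Pgr, Wnt4, Tbx3, Krt7 and Krt8 lie on opposite sides of 0 in the 2 states, and Stc2 and Cldn7 lie on the same side.

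GFPhi cells, which the labels also describe as MaSC enriched, were set beside GFPlo cells with 1 array each, so these values carry no test. Of the contractile list, 22 of 23 genes had a higher ratio in GFPhi cells (median of GFPhi minus GFPlo 1.90), and of the basal list 14 of 18 (median 2.72), as did 50.7% of all genes. The luminal list also had a higher ratio in GFPhi cells in 14 of 18 genes (median 0.43) and the fast muscle list in 17 of 20 (median 0.90), whereas their virgin P4 minus P5 medians were -1.85 and -1.74. In the hormone-sensing list 4 of 15 genes had a higher ratio in GFPhi cells (median -0.09), against a virgin P4 minus P5 median of -2.33.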

How the data were processed

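RNA of sorted mouse mammary cells was hybridised to 2-colour Agilent arrays. Per the labels, Cy5 held the sorted sample and Cy3 a common reference. The deposited scanner files give, per the file headers, mean spot and median local background intensity in each channel, flags, and a log10 ratio made with Agilent Feature Extraction 9.5.3.1. The authors' series table holds log2 ratios of Cy5 over Cy3, a scale and direction found by setting each column against that array's scanner log ratio. Its column medians ran from -0.018 to 0.102, how it was centred is unknown, and it served as an alternative only.

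Intensities were corrected with normexp (offset 50) and normalized by loess within each array in limma 3.58.1 (R 4.3.3), with control spots at weight 0 and outlier spots left out. Local backgrounds marked as outliers by the scanner were replaced by the median of their array and channel, a choice made after seeing the data. Probes well above background in Cy5 on all arrays of at least 1 of the 6 wild-type groups were kept (34805 probes, 23647 genes), with the brightest probe standing for a gene. Of 3746 other probes of genes called in virgin mice, 12.4% had a P4 minus P5 of the opposite sign. For called genes with at least a 2-fold difference this share was 8.76% of 1666 probes. A gene not well above background in 1 population is given as at least the lower of the fold of its normalized Cy5 signals, with the dim arrays at no less than their lowest signal above background, and the fold of its log2 ratios. Of the genes, 18035 had a symbol in the reference gene table.

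lmFit and eBayes were run over the 12 wild-type arrays, with 6 groups and the replicate number within each condition as a block (4 residual degrees of freedom). Same-numbered virgin arrays shared a slide, and their deviations from the group means correlated at 0.446 between P4 and P5, 0.307 between P4 and P6 and 0.680 between P5 and P6. In pregnant mice, where replicate 2 of P4 lay on another slide than replicate 2 of P5, these correlations were 0.687, 0.676 and 0.630. P-values were adjusted by Benjamini-Hochberg over all genes tested, and calls had an adjusted p under 0.05. Alternatives changed the normalization, background, filter, probe choice, block and arrays. The text does not name every alternative under which a gene lost its call. On simulated data for P4 minus P5 in virgin mice (23528 genes), 68% of 100 genes changed by 1 on the log2 scale were recovered. Of 100 genes changed by 2, 97% were recovered, and 8 of 173 calls were unchanged genes. The simulation took its spread from the fitted model, with independent noise and the same block. It therefore cannot test whether the block or the spread holds for these arrays. Far fewer genes differed in it than the 24.3% called in the data.

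The text names the 15 genes with the largest positive and the 15 with the most negative difference among called genes with the same sign in both pairs and a reference symbol, the 4 markers, the sorting genes and list members, those with the largest differences first. The members and lists were chosen with earlier results of these data known. Promoters were taken from RefSeq (GRCm38.p6). One hormone-sensing gene is counted in its list but not reported here by name.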

Additional observations from a re-analysis of the deposited data

Results flagged for a closer look

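Of 32 genes checked (the 15 with the largest differences in each direction and the marker genes), 17 differed in P4 minus P5 between virgin and pregnant mice, as tested by the interaction in limma (adjusted p under 0.05, Benjamini-Hochberg), and 13 of them without the replicate block. The values below are virgin minus pregnant, on the log2 scale. Among the muscle genes the interaction was -5.35 for Myh8, -4.17 for Myl1, -3.22 for Mylpf, -3.07 for Tnnc2 and -2.63 for Myh4. Among the luminal genes it was -3.45 for Prom1 and -2.67 for Krt18, where pregnant P5 had 1 array with a value for Krt18.

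Of the other genes that were lower in virgin P4, Aoc1 had an interaction of -4.01, Clca1 of -3.90, Ido1 of -3.67 and Gipc2 of -3.41. It was -3.35 for Myb, -3.06 for Tlcd4, -2.94 for Mboat1 and -2.17 for Tspan1. In pregnant mice Clca1 gave 0.03 and -0.06 in P4, against 0.01 and 0.125 in P5. Aoc1 gave 0.29 and -0.15 in pregnant P4, against 0.01 and -0.15 in pregnant P5. Whether these probes stood above background on the pregnant arrays is not given here. Among the basal genes that were higher in virgin P4, the interaction was 1.50 for Col17a1 and 1.72 for Col7a1. The calls of Col17a1, Col7a1, Myh4 and Tspan1 were lost without the block, and those of Aoc1, Col7a1, Myh4, Myl1, Tlcd4 and Tspan1 with the scanner's log ratios. With those ratios the interaction of Myh4 changed sign, to 0.27 (limma adjusted p = 0.75), and those of Aoc1, Tlcd4 and Tspan1 were -1.76, -1.81 and -0.66. Local backgrounds as given ended the calls of Myh8 (limma adjusted p = 0.068), Myh4, Col17a1 and Col7a1. Median centring ended those of Col17a1 and Col7a1, the slide as a block those of Col7a1 and Myh4, and the median of a gene's probes that of Col17a1. That median gave -2.60 for Myh8. Without the pregnant arrays scanned without extended dynamic range, Col17a1 and Col7a1 were not called and Krt18 had no value.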

How the results depend on the processing

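The genes called between virgin P4 and P5 numbered 2690 without the replicate block and from 2673 to 3635 with one of the 4 arrays left out, against 5747 as reported. With local backgrounds as given, 3873 genes were called between virgin P4 and P5. Between pregnant P4 and P5 the calls numbered 5348 without the block and 5600 with local backgrounds as given, against 9757. The interaction was called in 1903 genes without the block and in 2407 with local backgrounds as given, against 6245. Leaving out one array gave 19 contractile, 15 to 17 basal, 13 to 16 luminal and 10 to 12 hormone-sensing calls. Over all settings these counts ran from 18 to 21, 15 to 18, 12 to 17 and 10 to 12. Median centring gave 33.0% higher among virgin calls (52.6% with loess), 75.7% among pregnant calls (46.8% with loess) and 12.1% larger among interaction calls (53.2% with loess, 41.1% with local backgrounds as given). Of 210 called genes in the lists and ranks, 56 lost their call without the block, 48 with local backgrounds as given, 29 with median centring, 25 with the scanner's log ratios and 45 to 54 with one array left out. Pgm5 alone changed sign, to -0.031 with the median of its probes. A fit without an array leaves 1 array in that population, assumed to vary like the other groups, which leaves fewer degrees of freedom. The causes of the other changes were not tested. With 2 arrays a group, the number of arrays limits the precision, and probes near background give bounds only.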

Other observations

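A small set of genes ran in opposite directions on the 2 slides. By limits chosen after seeing the values, P4 minus P5 was below -1 on the first slide and above 0.5 on the second in 93 genes (0.393% of 23645), and the reverse held in 10 genes (0.042%). The median ratio of the 93 genes was 0.64 and 2.43 on the P4 arrays (replicate 1 and replicate 2), 2.58 and 1.23 on the P5 arrays, and 3.01 and 1.74 on the P6 arrays.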
